A study of Mus musculus with 12 samples.

Results

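The insulin-like growth factor (IGF) genes described here are the ligand Igf1, its receptor Igf1r and the 7 binding proteins Igfbp1 to Igfbp7, which are 9 of the 19938 genes measured. They were chosen by gene name from the deposited table, with earlier results of these data known, and each by the brightest of its probe sets, meaning the highest mean over the 12 arrays. All 9 have a single probe set of their own, so brightness decided nothing and no contrast between groups entered the choice of probe set. Whether contrasts between groups in the earlier results entered the choice of genes is not known. The set is not the whole family of receptors, since Igf2 and its receptor Igf2r are not among the 9, and both are given further below. Mouse RNA was measured on 12 whole-transcript arrays, 3 for each of 4 groups. The ESC group is the established mouse embryonic stem cell line V6.5, grown in DMEM with LIF, a cytokine that keeps them self-renewing, at 1000 IU/ml, and with fetal bovine serum at 15%. The null_EB group holds embryoid bodies, free-floating cell aggregates, made from CD47 null lung endothelial cells of strain C57Bl/6. The parental cells had been passaged for 6 months before they were moved to basal medium lacking serum, and bodies were seen 24 to 36 h later. The null_EC group is CD47 null lung endothelial cells of C57Bl/6 and the WT_EC group is wild-type lung endothelial cells of C57Bl/6, both in EGM-2 medium. CD47 is the surface receptor for thrombospondin-1 and SIRP alpha. The labels give no animal age, no passage time for null_EC or WT_EC, and do not say whether the 3 arrays of a group came from separate animals or cultures, so the p-values measure the spread between these samples, which may be technical. Medium and growth form differed between the groups together with cell type. EGM-2 is sold with a supplement kit that includes a recombinant IGF1 analogue.

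IGF1 and IGF2 are secreted growth factors that signal through the receptor tyrosine kinase IGF1R to the phosphoinositide 3-kinase, AKT and MTOR pathway, which promotes growth and survival. Most IGF outside cells is held by IGF binding proteins, which keep it from the receptor, carry it in blood or concentrate it at the cell surface, and which proteases such as pregnancy-associated plasma protein A cleave to set it free. In the vessel wall, IGF1 acts on endothelial cells and smooth muscle, and IGFBP7 is a secreted protein of the vascular basement membrane.

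The promoters of the 5 binding protein genes that differed most in ESC are shown first, because the 5 genes moved in opposite directions there. Igfbp2 was higher in ESC than in each other group, while Igfbp3, Igfbp4, Igfbp6 and Igfbp7 were lower. Each run is the 250 bases before the RefSeq start in build GRCm38.p6, read 5′ to 3′ on the gene's strand. Capitals mark matches, on either strand, to the TATA box TATAAA, the GC box GGGCGG, the E-box CACGTG that MYC and MAX bind, and the AP-1 site TGANTCA.
Igfbp2 (chr1:72824230-72824479, plus strand): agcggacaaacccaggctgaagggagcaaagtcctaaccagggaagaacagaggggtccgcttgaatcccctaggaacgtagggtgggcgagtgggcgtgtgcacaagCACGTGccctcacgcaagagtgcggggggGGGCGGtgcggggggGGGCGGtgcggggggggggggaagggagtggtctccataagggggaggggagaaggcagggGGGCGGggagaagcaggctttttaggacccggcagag
Igfbp3 (chr11:7213924-7214173, minus strand): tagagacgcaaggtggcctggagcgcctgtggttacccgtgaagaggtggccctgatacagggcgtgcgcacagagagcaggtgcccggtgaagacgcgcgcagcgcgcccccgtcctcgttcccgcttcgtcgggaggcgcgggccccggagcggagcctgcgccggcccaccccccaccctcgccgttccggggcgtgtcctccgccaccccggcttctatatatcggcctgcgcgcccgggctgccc
Igfbp4 (chr11:99040994-99041243, plus strand): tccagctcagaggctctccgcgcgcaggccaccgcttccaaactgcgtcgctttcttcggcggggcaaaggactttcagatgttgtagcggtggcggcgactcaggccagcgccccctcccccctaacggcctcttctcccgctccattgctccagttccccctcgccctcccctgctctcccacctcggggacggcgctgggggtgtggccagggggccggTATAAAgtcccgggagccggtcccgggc
Igfbp6 (chr15:102143936-102144185, plus strand): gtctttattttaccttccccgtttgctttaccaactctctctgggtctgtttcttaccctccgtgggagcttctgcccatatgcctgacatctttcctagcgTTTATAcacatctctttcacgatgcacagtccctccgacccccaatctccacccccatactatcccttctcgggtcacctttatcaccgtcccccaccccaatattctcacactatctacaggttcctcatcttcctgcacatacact
Igfbp7 (chr5:77408046-77408295, minus strand): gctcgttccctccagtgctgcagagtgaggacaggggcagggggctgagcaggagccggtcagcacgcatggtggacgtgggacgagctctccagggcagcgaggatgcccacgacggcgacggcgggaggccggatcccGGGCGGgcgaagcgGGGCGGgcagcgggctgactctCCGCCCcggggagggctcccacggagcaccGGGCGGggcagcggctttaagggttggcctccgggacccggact
All 9 genes were found in the promoter table, and Igfbp2 had 2 windows, of which the upstream one is printed. The other held 1 AP-1 site and no other match.

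Of these 5 windows, Igfbp2 held 3 GC boxes and 1 E-box, and Igfbp7 held 4 GC boxes. Igfbp4 held a TATA box beginning 28 bases before the start, and Igfbp6 held a match on the other strand, beginning 148 bases before it. Igfbp3 held none of the 4 motifs. No base belonged to more than 1 match. Over the 32851 promoter windows of the table, 32.7% held a GC box, 12.4% a TATA box, 6.02% the E-box and 6.75% the AP-1 site. G and C made up 67.2% of the bases before Igfbp2, 73.2% before Igfbp3, 69.2% before Igfbp4, 49.6% before Igfbp6 and 74.0% before Igfbp7. In the windows of the other 4 genes, Igf1r held 2 GC boxes, Igf1 held 1 AP-1 site, and Igfbp1 and Igfbp5 held no match. Among protein-coding genes of the RefSeq annotation, Igfbp2 and Igfbp5 lie next to each other on chromosome 1, and Igfbp1 and Igfbp3 lie next to each other on chromosome 11. In each pair 1 gene had high signal in some group and its neighbour had low signal on all 12 arrays, as described below.

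Values are log2 signals as deposited, so a difference of 1 is a 2-fold change, and levels of different genes are not compared because each probe set has its own brightness. A group mean is given ± SD of 3 arrays, and a difference is the first-named group minus the other with its standard error (SE) from limma, a linear model fitted over all genes. A call means an adjusted p under 0.05 after Benjamini-Hochberg adjustment over all 19938 genes. Signals below 8.01, the median of all values, are described as low. The WT_EC arrays stood apart: pairs of them correlated across genes at 0.948 to 0.960, against 0.996 to 0.998 for pairs within ESC, null_EB or null_EC. Within WT_EC the median gene had an SD of 0.21, against 0.065 to 0.085 within the other groups. The fit shares 1 estimate of the spread over all groups, so p-values in comparisons with WT_EC tend to be too small and those without WT_EC too large.

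The targeted gene Cd47 had signals of 11.23, 10.96 and 11.33 in ESC, 10.99, 10.89 and 10.93 in null_EB, 10.98, 11.11 and 11.02 in null_EC, and 12.59, 11.29 and 12.48 in WT_EC. The null groups lay below WT_EC but kept high signal, and which exons the probe set covers is not known, so it is a weak check of the labels. The endothelial labels were only in part borne out by defining markers. Of 16 endothelial genes, 6 lay above the low-signal line on all arrays in ESC, 2 in null_EB, 3 in null_EC and 3 in WT_EC. Their median was 7.53 to 7.60 in ESC, 7.13 to 7.20 in null_EB and 7.29 to 7.30 in null_EC. On the WT_EC arrays it was 7.92, 7.08 and 8.06, so the list as a whole did not set null_EC above ESC. Cdh5, the cadherin of endothelial junctions, was at 7.09 to 7.27 in null_EC, and at 9.10, 6.85 and 9.52 on the WT_EC arrays. Pecam1, an endothelial adhesion molecule also made by embryonic stem cells, was at 8.84 to 8.87 in ESC, 6.53 to 6.59 in null_EB, 6.57 to 6.61 in null_EC and 6.80, 6.46 and 7.56 in WT_EC. Kdr, a VEGF receptor, was at 6.84 to 6.98 in ESC, 7.26 to 7.40 in null_EB, 10.52 to 10.83 in null_EC and 8.51 to 9.35 in WT_EC. Of 9 mesothelial genes, 3 lay above the low-signal line on all arrays in ESC, 7 in null_EB, 8 in null_EC and 7 in WT_EC. The keratin Krt18 was higher in ESC, at 11.04 to 11.78, than in null_EB, at 7.13 to 7.62, and null_EC, at 7.22 to 7.46. On the WT_EC arrays Krt18 was at 8.73, 7.20 and 10.27. Upk3b, in contrast, was at 12.05 to 12.25 in null_EB, 13.03 to 13.06 in null_EC and 11.06 to 12.50 in WT_EC, beside 7.64 to 7.83 in ESC. The median of 14 fibroblast and smooth muscle genes was 9.79 to 9.97 in ESC, 9.90 to 10.14 in null_EB, 10.24 to 10.89 in null_EC and 10.56 to 11.41 in WT_EC, so signal of this kind was present on the ESC arrays as well. The median of 12 immune genes reached 10.30 on WT_EC 3, stood at 7.77 and 6.80 on the other two WT_EC arrays (1 and 2), and was at most 7.01 elsewhere. In bulk RNA, fewer cells of a type and less RNA per cell cannot be told apart.

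**Figure D1:**
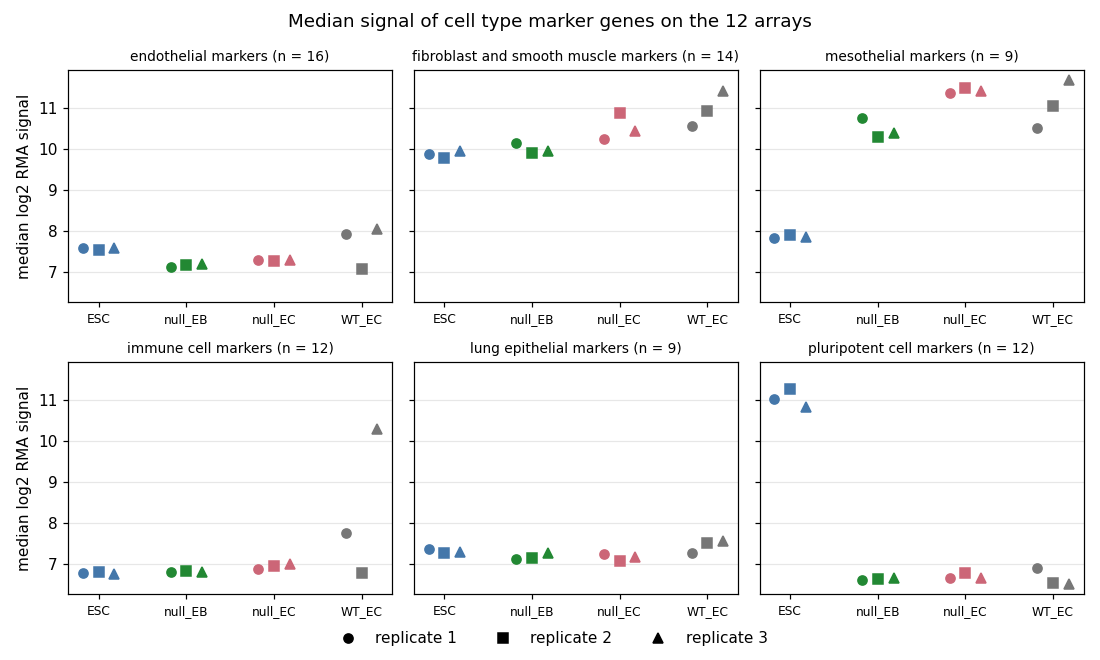
Median log2 RMA signal (vertical axis) of 6 lists of cell type marker genes on each of the 12 arrays; the horizontal axis gives the group, each point is 1 array, its shape gives the replicate, and n is the number of genes measured. The immune median was 10.30 on WT_EC 3 and 7.77 or lower on all other arrays, and the mesothelial median was 7.85 to 7.90 in ESC and 10.31 or more in the other groups.

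Igf1 encodes the secreted ligand. Its signal was 7.32, 7.31 and 7.42 in ESC, 8.06, 7.57 and 7.61 in null_EB, 7.09, 7.54 and 7.23 in null_EC, and 9.26, 8.002 and 10.56 in WT_EC. WT_EC 1, WT_EC 3 and null_EB 1 lay above the low-signal line, and WT_EC 2 fell just below it. The WT_EC arrays differed among themselves by more than those of any other group. Null_EC (7.29 ± 0.23) lay 3.96-fold below WT_EC (9.27 ± 1.28), a log2 difference of -1.99 (SE 0.47, adjusted p = 0.0187). It was 3.79-fold lower in ESC (7.35 ± 0.061) than in WT_EC (log2 -1.92, SE 0.47, adjusted p = 0.00613), a call just missed with the 6 arrays alone (adjusted p = 0.0506). The order of the groups was WT_EC, null_EB, ESC and null_EC. Null_EB (7.75 ± 0.27) was 2.88-fold lower than WT_EC (adjusted p = 0.0461), and the neighbours ESC and null_EB (log2 -0.40, 95% interval -1.44 to 0.65) and ESC and null_EC (log2 0.06, 95% interval -0.98 to 1.11) did not pass the test. The ESC and null_EB arrays did not overlap, and without the 3 WT_EC arrays, an alternative added after seeing the data, their difference was called (adjusted p = 0.0162), as was that of null_EB and null_EC (log2 0.46, adjusted p = 0.0184).

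How much Igf1 differed depended on which WT_EC arrays were counted. Against null_EC the log2 difference was -1.34 without WT_EC 3 (adjusted p = 0.0135) and -2.62 without WT_EC 2 (adjusted p = 0.000168). The call was lost without null_EC 1 (adjusted p = 0.0776), without null_EC 3 (adjusted p = 0.0655) and in a fit to the 6 arrays of these groups alone (adjusted p = 0.169). The call against null_EB was lost on leaving out any 1 array other than WT_EC 2 (adjusted p up to 0.139, with a log2 difference of -0.88 without WT_EC 3). The 3 WT_EC arrays had the same order for Igf1 as for 11 of the 12 immune genes, all but Cd14, which was at 8.48, 10.20 and 8.73. This order was also that of 11 of the 16 endothelial markers, Cdh5 among them. The share of all genes with this order was not counted. Csf1r, the receptor for macrophage colony-stimulating factor, was at 7.69, 6.86 and 8.92 on WT_EC 1, 2 and 3, and Ptprc, the pan-leukocyte antigen CD45, was at 6.48, 6.24 and 9.01. Of the 12 immune genes, 1 was called lower in null_EC than in WT_EC and 0 higher, and of the 16 endothelial markers 1 lower and 1 higher. Over all genes 5.00% were called lower and 8.12% higher there. The part of the immune or endothelial genes in the Igf1 difference was not tested.

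Igf1r, the receptor kinase that binds IGF1 and IGF2, had high signal on all 12 arrays and small differences between groups. Its signal was 10.95, 10.88 and 10.91 in ESC, 11.30, 11.26 and 11.29 in null_EB, 10.87, 10.81 and 10.78 in null_EC, and 11.12, 11.06 and 11.23 in WT_EC. The null_EB arrays lay above all others and the null_EC arrays below all others. It was 1.38-fold higher in null_EB (11.29 ± 0.020) than in null_EC (10.82 ± 0.046; log2 0.47, SE 0.066, adjusted p = 0.00266). Null_EC lay 1.25-fold below WT_EC (11.14 ± 0.086), with a log2 difference of -0.32 (SE 0.066, adjusted p = 0.00941), a call lost with the 6 arrays alone (adjusted p = 0.134). ESC (10.91 ± 0.038) was 1.30-fold below null_EB (adjusted p = 0.000687) and 1.17-fold below WT_EC (adjusted p = 0.0160), and the difference from WT_EC was not called with array weights (adjusted p = 0.0822), with the 6 arrays alone (adjusted p = 0.116), without ESC 2 (adjusted p = 0.0537) or without WT_EC 3 (adjusted p = 0.05001). In the order null_EB, WT_EC, ESC and null_EC, neither null_EB and WT_EC (log2 0.15, adjusted p = 0.145) nor ESC and null_EC (log2 0.09, 95% interval -0.05 to 0.24) passed the test. Null_EB was called above WT_EC with arrays scaled on housekeeping genes (log2 0.30, adjusted p = 0.0263). The difference of ESC from null_EC was called with array weights (log2 0.12, adjusted p = 0.0190) and turned to -0.10 with the housekeeping scaling.

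**Figure D2:**
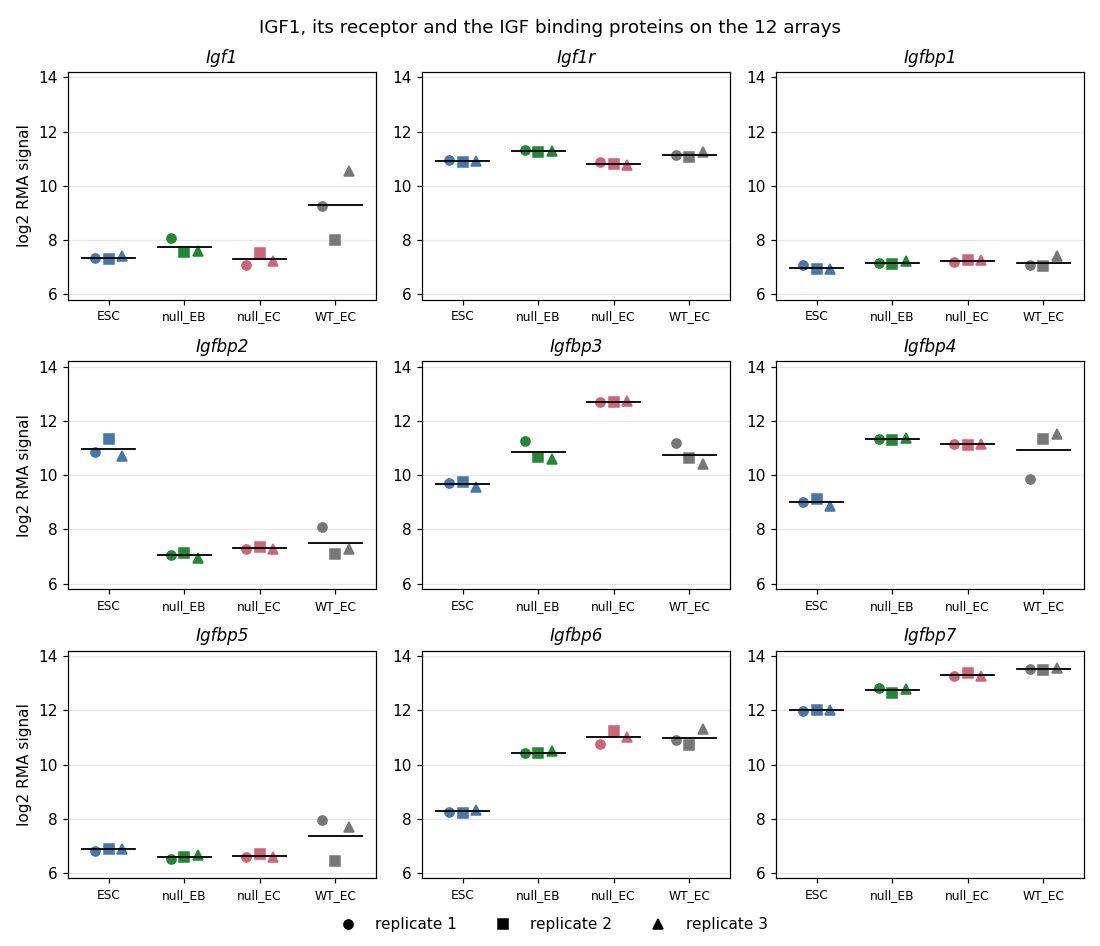
Log2 RMA signal (vertical axis) of the 9 genes on each of the 12 arrays, with the group on the horizontal axis; each point is 1 array, its shape gives the replicate and the black line is the group mean. Igfbp3 stood highest in null_EC at 12.69 to 12.72, Igfbp2 stood at 10.69 to 11.35 in ESC and at 8.09 or lower elsewhere, and the WT_EC points of Igf1, Igfbp4 and Igfbp5 were spread widest.

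Igfbp3 encodes the main IGF carrier of blood serum, which forms a complex with IGF and the acid-labile subunit. Its signal was 9.72, 9.75 and 9.55 in ESC, 11.25, 10.67 and 10.60 in null_EB, 12.69, 12.71 and 12.72 in null_EC, and 11.19, 10.64 and 10.43 in WT_EC. It stood highest in the adherent CD47 null cells, on arrays that differed from each other by 0.035 at most, and lowest in ESC, with no overlap between these groups and the rest. Null_EC (12.71 ± 0.018) exceeded WT_EC (10.75 ± 0.39) by 3.87-fold, a log2 difference of 1.95 (SE 0.20, adjusted p = 0.000127). In null_EB (10.84 ± 0.36) it was 3.65-fold lower than in null_EC (log2 -1.87, SE 0.20, adjusted p = 0.000510), so that null_EB and WT_EC, the neighbours in the middle of the order, did not differ beyond their error (log2 0.09, 95% interval -0.35 to 0.53, adjusted p = 0.821). These differences with null_EC share its 3 arrays. ESC (9.67 ± 0.11) lay 8.19-fold below null_EC (adjusted p = 3.12e-07), 2.25-fold below null_EB (adjusted p = 0.000570) and 2.11-fold below WT_EC (adjusted p = 0.000984). Each of these 5 calls held under every alternative processing tried, and the log2 difference of null_EC against WT_EC was 1.79 to 2.17 with any 1 array left out.

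Some mesothelial genes differed in the same comparisons as Igfbp3. Of the 9 mesothelial genes, 4 were called higher, 0 lower and 5 not called in null_EC against WT_EC. There 8.12% of all genes were called higher and 5.00% lower. In null_EB against null_EC 3 were called lower, 0 higher and 6 not called, where 2.50% of all genes were lower and 2.90% higher. The mesothelial median was 10.75, 10.31 and 10.39 in null_EB, 11.37, 11.49 and 11.41 in null_EC, and 10.53, 11.04 and 11.68 in WT_EC, so that WT_EC 3 lay above every null_EC array, where for Igfbp3 it lay lowest of the WT_EC arrays. Their part in the Igfbp3 differences was not tested.

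Igfbp2 encodes a binding protein with an integrin-binding RGD motif that is made in the early embryo and in many fetal tissues. Its signal was 10.87, 11.35 and 10.69 in ESC, 7.05, 7.14 and 6.95 in null_EB, 7.29, 7.34 and 7.29 in null_EC, and 8.09, 7.08 and 7.28 in WT_EC. ESC stood far above all 9 other arrays, of which WT_EC 1 alone lay above the line for low signal. The ESC mean of 10.97 ± 0.34 was 15.1-fold above null_EB (7.05 ± 0.095; log2 3.92, SE 0.23, adjusted p = 1.74e-07). It was 12.7-fold above null_EC (7.30 ± 0.029; adjusted p = 2.44e-07) and 11.2-fold above WT_EC (7.48 ± 0.54; adjusted p = 4.61e-07). Among the 3 groups from lung no pair passed the test, with log2 differences of -0.18 in null_EC against WT_EC (95% interval -0.69 to 0.34), -0.26 in null_EB against null_EC (95% interval -0.77 to 0.26) and -0.43 in null_EB against WT_EC (95% interval -0.95 to 0.08). Null_EB and null_EC did not overlap and were called apart when their 6 arrays were fitted alone (adjusted p = 0.0125). The folds are ratios of array signal and not of RNA amounts. The median of 12 pluripotency genes was 10.83 to 11.28 in ESC, against at most 6.92 on the other arrays. All 12 lay above the low-signal line in ESC, and so did 1, Tfcp2l1, in null_EB and null_EC.

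Igfbp4, Igfbp6 and Igfbp7 were all lower in ESC than in each other group. Igfbp4 encodes an inhibitor of IGF action that the protease PAPP-A cleaves. Its signal was 8.9995, 9.12 and 8.86 in ESC, 11.33, 11.31 and 11.35 in null_EB, 11.16, 11.11 and 11.14 in null_EC, and 9.86, 11.35 and 11.52 in WT_EC. ESC did not overlap any other group, and WT_EC 1 lay 1.48 below the next WT_EC array. The ESC mean of 8.99 ± 0.13 was 5.06-fold below null_EB (11.33 ± 0.023; adjusted p = 0.000143), 4.42-fold below null_EC (11.14 ± 0.027; adjusted p = 0.000249) and 3.78-fold below WT_EC (10.91 ± 0.91; adjusted p = 0.000607). The last difference was -2.44 on the log2 scale without WT_EC 1 (adjusted p = 5.39e-09) and -1.61 without WT_EC 3. No pair among null_EB, null_EC and WT_EC was called, though null_EB and null_EC, which did not overlap, were called apart with their 6 arrays alone (log2 0.19, adjusted p = 0.0209). The difference of null_EC from WT_EC was 0.23 (95% interval -0.50 to 0.96) and turned to -0.30 without WT_EC 1, where it was called (adjusted p = 0.0346).

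Igfbp6 encodes a binding protein that prefers IGF2 over IGF1. Its signal was 8.26, 8.22 and 8.33 in ESC, 10.42, 10.41 and 10.496 in null_EB, 10.75, 11.23 and 11.01 in null_EC, and 10.91, 10.74 and 11.29 in WT_EC. The groups formed 3 levels, with ESC far below null_EB and null_EB below both endothelial groups without overlap. ESC (8.27 ± 0.056) was 4.50-fold below null_EB (adjusted p = 4.16e-07), 6.63-fold below null_EC (adjusted p = 5.73e-08) and 6.54-fold below WT_EC (adjusted p = 8.55e-08). Null_EB (10.44 ± 0.049) was 1.47-fold below null_EC (11.0005 ± 0.24; log2 -0.56, SE 0.14, adjusted p = 0.0492) and 1.45-fold below WT_EC (10.98 ± 0.28; adjusted p = 0.0252). Both smaller differences are weak. The one with null_EC was lost with arrays scaled on housekeeping genes (log2 -0.36, adjusted p = 0.147), with the replicate number as a block (adjusted p = 0.0655), with a variance trend (adjusted p = 0.0559) and without any 1 of 8 arrays (adjusted p up to 0.201). The one with WT_EC was lost with the housekeeping scaling (adjusted p = 0.0959), with the 6 arrays alone (adjusted p = 0.117), without any null_EB array (adjusted p 0.0616 to 0.0860) and without WT_EC 3 (adjusted p = 0.0589). Null_EC and WT_EC did not differ beyond their error (log2 0.02, 95% interval -0.30 to 0.34).

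Igfbp7 encodes a low-affinity IGF binding protein of the vascular matrix, and it had high signal on all 12 arrays. Its signal was 11.96, 12.03 and 12.01 in ESC, 12.83, 12.63 and 12.80 in null_EB, 13.26, 13.36 and 13.28 in null_EC, and 13.52, 13.49 and 13.57 in WT_EC. The 4 groups did not overlap at any step of the order WT_EC, null_EC, null_EB and ESC. Null_EB (12.75 ± 0.11) was 1.46-fold below null_EC (13.30 ± 0.055; log2 -0.55, SE 0.072, adjusted p = 0.00174) and 1.71-fold below WT_EC (13.53 ± 0.040; adjusted p = 7.92e-05). ESC (11.998 ± 0.036) was 1.69-fold below null_EB (adjusted p = 6.81e-06), 2.47-fold below null_EC (adjusted p = 7.8e-08) and 2.88-fold below WT_EC (adjusted p = 3.19e-08). The step of null_EC against WT_EC, log2 -0.22 (SE 0.072), missed the threshold (adjusted p = 0.0652) and passed it with a variance trend (adjusted p = 0.0443) and without WT_EC 2 (adjusted p = 0.0416).

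Igfbp1, a binding protein made mainly by the liver and regulated by insulin, and Igfbp5, which binds extracellular matrix and is prominent in muscle and bone, had low signal on all 12 arrays. Igfbp1 ranged from 6.92 to 7.08 in ESC, 7.11 to 7.22 in null_EB, 7.19 to 7.28 in null_EC and 7.03 to 7.40 in WT_EC. The 1.21-fold lower value in ESC than in null_EC (6.97 ± 0.093 against 7.24 ± 0.046, adjusted p = 0.0441) was its only call in the fit to all 12 arrays, and it was lost with the replicate number as a block (adjusted p = 0.0564) and without any 1 of 8 arrays (adjusted p up to 0.123). Igfbp5 was at 6.83, 6.89 and 6.88 in ESC, 6.53, 6.59 and 6.65 in null_EB, 6.61, 6.71 and 6.58 in null_EC, and 7.95, 6.44 and 7.71 in WT_EC. WT_EC 1 and 3 lay above all other arrays and WT_EC 2 below all others, and no pair of groups was called. Without the 3 WT_EC arrays ESC was called higher than null_EC (log2 0.23, adjusted p = 0.00408) and null_EB (log2 0.28, adjusted p = 0.00133), at low signal. The difference from null_EB turned to -0.12 with arrays scaled on housekeeping genes. ESC was called lower than WT_EC with that scaling (adjusted p = 0.0424), with array weights (adjusted p = 0.0188) and without WT_EC 2 (log2 -0.96, adjusted p = 5.08e-06). Against WT_EC the log2 difference of null_EC was -0.73 (95% interval -1.38 to -0.09, adjusted p = 0.137), and without WT_EC 2 it was -1.20 (adjusted p = 6.86e-06). WT_EC 2 was also the lowest WT_EC array for 14 of the 16 endothelial markers, Cdh5 among them, but not for Kdr or Egfl7. The same held for 11 of the 12 immune genes, all but Cd14. The share of all genes lowest on WT_EC 2 was not counted. The part of the endothelial or immune genes in the Igfbp5 values was not tested.

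Set against all genes, the 9 genes were called as follows. In null_EC against WT_EC, 3 of the 9 were called, Igfbp3 higher and Igf1 and Igf1r lower, where 13.1% of all genes were called (8.12% higher and 5.00% lower). Fitted to the 6 arrays of these groups alone, 1 of the 9 was called, Igfbp3. In null_EB against null_EC, 4 were called, Igf1r higher and Igfbp3, Igfbp6 and Igfbp7 lower, where 5.40% of all genes were called (2.90% higher and 2.50% lower). With the 6 arrays alone 7 of the 9 were called there, where calls over all genes rose to 5464 in place of 1077. Without the 3 WT_EC arrays 5 of the 9 were called, with 5058 calls over all genes. In null_EB against WT_EC, 3 were called, all lower (Igf1, Igfbp6 and Igfbp7), where 18.5% of all genes were called (12.3% higher and 6.19% lower). With the 6 arrays alone, without any 1 null_EB array or without WT_EC 3 the count was 1. All genes called in these fits numbered 870, 2026 to 2503, and 3570. The median log2 difference of the 9 was -0.18, -0.07 and -0.43 in these comparisons, beside 0.03, -0.0056 and 0.02 over all genes.

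The comparisons with ESC called a far larger share of all genes. In ESC against null_EC, 6 of the 9 were called, Igfbp2 higher and Igfbp1, Igfbp3, Igfbp4, Igfbp6 and Igfbp7 lower, where 47.9% of all genes were called (22.9% higher and 25.1% lower). In ESC against null_EB, 6 were called, Igfbp2 higher and Igf1r, Igfbp3, Igfbp4, Igfbp6 and Igfbp7 lower, where 44.8% of all genes were called (21.8% higher and 23.0% lower). In ESC against WT_EC, 7 were called, all but Igfbp1 and Igfbp5, where 47.1% of all genes were called (25.4% higher and 21.7% lower). The median log2 difference of the 9 was -0.27, -0.40 and -1.08, beside -0.09, -0.08 and -0.07 over all genes. Without the 3 WT_EC arrays, an alternative added after seeing the data, 7 of the 9 were called in ESC against null_EC and all 9 in ESC against null_EB. The 6 comparisons share arrays and are not independent of each other. The split of all calls by direction depended on scaling. With arrays scaled on housekeeping genes, the percent of calls that were higher was 50.5 in place of 61.9 in null_EC against WT_EC, 88.8 in place of 53.7 in null_EB against null_EC, and 84.2 in place of 66.6 in null_EB against WT_EC. For ESC it was 27.3 in place of 47.7 against null_EC, 16.4 in place of 48.6 against null_EB and 26.1 in place of 53.9 against WT_EC.

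**Figure D3:**
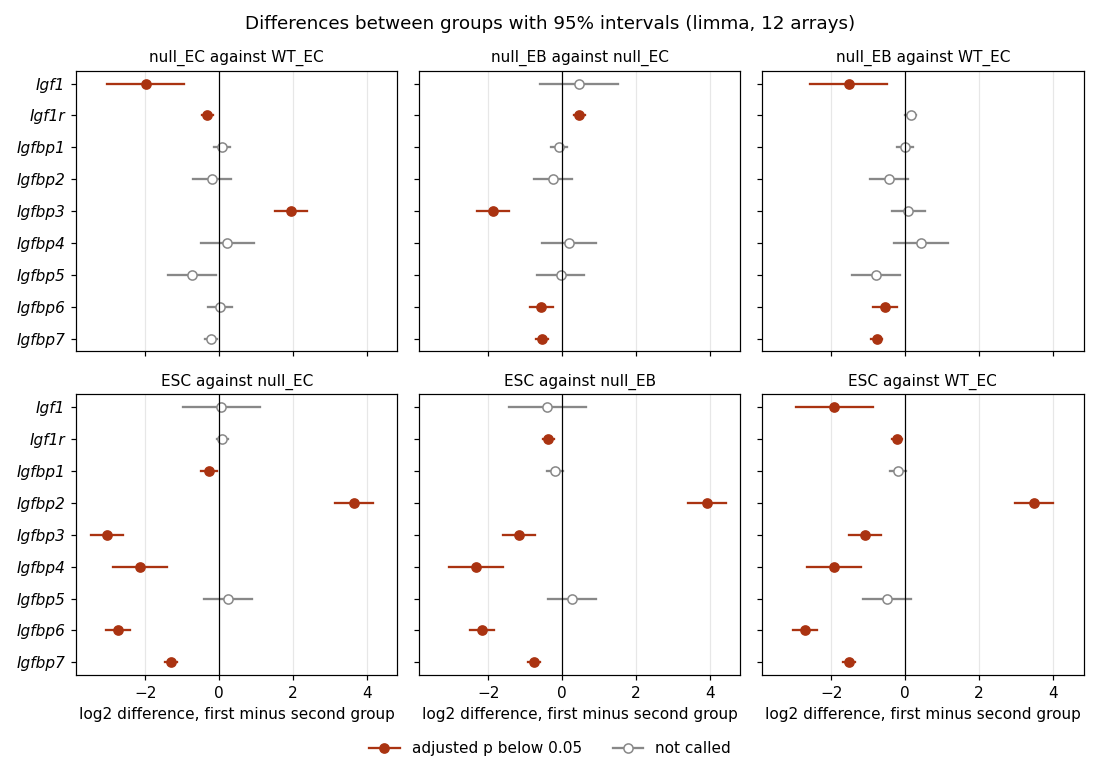
Log2 differences (horizontal axis, first-named minus second-named group) of the 9 genes (vertical axis) in the 6 comparisons, with 95% intervals from limma over 12 arrays; filled points passed an adjusted p of 0.05. Igfbp3 lay at 1.95 in null_EC against WT_EC and at -1.87 in null_EB against null_EC, and Igfbp2 lay at 3.49 to 3.92 in the comparisons of ESC.

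The other genes of the IGF system were taken from 4 lists, drawn up with earlier results of these data known. Of the other ligands and receptors 5 of 6 were measured. In null_EC against WT_EC and in null_EB against null_EC limma called 0 of them, with 1 and 2 at an unadjusted p below 0.05. In null_EB against WT_EC 1 was higher and 0 lower, in ESC against null_EC 0 higher and 1 lower, in ESC against null_EB 1 higher and 1 lower, and in ESC against WT_EC 1 higher and 2 lower. Shares of all genes called in the 6 comparisons, in the order named, were 13.1%, 5.40%, 18.5%, 47.9%, 44.8% and 47.1%. Igf2, the fetal ligand, was at 11.33, 11.13 and 11.26 in ESC, 8.36, 8.23 and 8.47 in null_EB, 11.21, 10.65 and 10.80 in null_EC, and 8.25, 11.92 and 8.69 in WT_EC. Every ESC and null_EC array lay above every null_EB array, and the WT_EC arrays were split, with WT_EC 2 the highest of all 12 arrays and WT_EC 1 and 3 near null_EB. Igf2 was 7.40-fold higher in ESC than in null_EB (11.24 ± 0.10 against 8.35 ± 0.12; log2 2.89, SE 0.72, adjusted p = 0.00676). In null_EB against null_EC, a comparison named after the values were seen, the log2 difference of -2.53 (SE 0.72) missed the threshold (adjusted p = 0.0721). It passed without the 3 WT_EC arrays, an alternative added after seeing the data (adjusted p = 1.52e-08), and also without any 1 WT_EC array (adjusted p = 1.24e-05 to 0.0461). Igf2r, which takes up IGF2 for degradation, was at 11.05, 10.96 and 10.91 in ESC, 11.29, 11.33 and 11.32 in null_EB, 11.02, 10.76 and 10.87 in null_EC, and 10.25, 10.87 and 10.41 in WT_EC. It was 1.75-fold higher in null_EB than in WT_EC (adjusted p = 0.00236) and 1.38-fold higher in ESC than in WT_EC (adjusted p = 0.0160), calls lost with the 6 arrays alone (adjusted p = 0.0534 and 0.0872). The difference between ESC and WT_EC was also lost with housekeeping scaling (adjusted p = 0.183). Insr, the insulin receptor, was lower in ESC (9.88 ± 0.14) than in null_EC (10.92 ± 0.093; 2.06-fold, adjusted p = 0.00238), null_EB (1.67-fold, adjusted p = 0.0190) and WT_EC (1.60-fold, adjusted p = 0.0270). ESC and WT_EC overlapped for Insr, and a fit to their 6 arrays made no call (adjusted p = 0.120). Insrr, an insulin receptor relative with low signal, was 1.21-fold lower in ESC than in WT_EC (adjusted p = 0.0225), a call lost with the 6 arrays alone (adjusted p = 0.126) and with array weights (adjusted p = 0.0612).

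Of the 11 proteases, inhibitors and complex genes that control binding proteins, 3 were lower and 0 higher in null_EC than in WT_EC. In null_EB against null_EC limma called 0, with 1 at an unadjusted p below 0.05. In null_EB 3 were lower and 0 higher than in WT_EC. Over all genes 13.1%, 5.40% and 18.5% were called in these comparisons. Adam12, a metalloprotease that cleaves IGFBP3 and IGFBP5, was at 8.10, 7.93 and 8.08 in ESC, 8.98, 8.76 and 8.67 in null_EB, 8.44, 8.91 and 8.42 in null_EC, and 11.02, 10.97 and 10.68 in WT_EC. The WT_EC arrays lay above all others. Adam12 was 7.21-fold lower in ESC (adjusted p = 5.94e-08), 4.24-fold lower in null_EB (adjusted p = 1.52e-05) and 4.93-fold lower in null_EC (adjusted p = 8.84e-06) than in WT_EC. Pappa, which encodes PAPP-A, was called lower in null_EC (7.35 ± 0.087), 3.20-fold below WT_EC (9.03 ± 1.33, adjusted p = 0.0414), with WT_EC arrays at 8.66, 7.92 and 10.51, and the difference was -0.94 on the log2 scale without WT_EC 3. The call was lost without any 1 of 9 arrays and with the 6 arrays alone (adjusted p = 0.250). Pappa was 2.62-fold higher in ESC (8.74 ± 0.11) than in null_EC (adjusted p = 0.0327), a call lost without any 1 of 6 arrays (adjusted p up to 0.0847). Stc2, which encodes an inhibitor of PAPP-A, was 2.97-fold lower in null_EB (8.22 ± 0.085) than in WT_EC (9.79 ± 0.63; adjusted p = 0.00128), and higher in ESC (9.39 ± 0.089) than in null_EC (1.99-fold, adjusted p = 0.00492) and null_EB (2.24-fold, adjusted p = 0.00188).

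In ESC, 3 of the 11 protease and complex genes were higher and 4 lower than in null_EC. The counts were 2 higher and 4 lower than in null_EB, and 0 higher and 6 lower than in WT_EC. Over all genes 47.9%, 44.8% and 47.1% were called in these comparisons. The serine protease Htra1, which cleaves IGFBP5, was 3.36-fold lower in ESC than in null_EC (9.69 ± 0.16 against 11.44 ± 0.11, adjusted p = 2.77e-06) and 2.35-fold lower than in null_EB (adjusted p = 4.93e-05). Adam9 was 2.26-fold lower in ESC than in null_EC (adjusted p = 2.27e-05) and 2.18-fold lower than in null_EB (adjusted p = 3.57e-05), and Htra3 was 3.56-fold lower in ESC than in WT_EC (adjusted p = 0.00298). Igfals, the acid-labile subunit that joins IGFBP3 in serum, had low signal in all groups. It was 1.18-fold higher in ESC than in null_EB (adjusted p = 0.0276), a difference that turned to -0.15 on the log2 scale with housekeeping scaling.

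Of 12 measured IGFBP-like and mRNA-binding genes, those that differed most in ESC were Igf2bp3 and Igf2bp1, whose proteins bind Igf2 mRNA and are typical of embryonic cells. Igf2bp3 was at 10.55, 10.59 and 10.51 in ESC, 6.20, 6.17 and 6.17 in null_EB, 5.95, 6.24 and 6.14 in null_EC, and 6.90, 6.17 and 6.86 in WT_EC. It lay above the low-signal line in ESC alone, so that only its log2 differences in signal are given. These were 4.37 against null_EB (adjusted p = 5.23e-09), 4.44 against null_EC (adjusted p = 4.01e-09) and 3.91 against WT_EC (adjusted p = 1.33e-08). Igf2bp1 was 5.29-fold higher in ESC (10.92 ± 0.21) than in null_EB (8.51 ± 0.046; adjusted p = 2.75e-06), 5.70-fold higher than in null_EC (8.40 ± 0.025; adjusted p = 1.7e-06) and 9.65-fold higher than in WT_EC (7.64 ± 0.51; adjusted p = 2.74e-07). The list had 4 genes higher and 2 lower in ESC than in null_EC, and the same counts in ESC against null_EB. It had 3 higher and 5 lower in ESC than in WT_EC. Over all genes 47.9%, 44.8% and 47.1% were called in these comparisons. Ccn4, a matricellular protein, was 4.68-fold lower in ESC than in null_EC (adjusted p = 8.89e-09). Kazald1, an IGFBP-related protein, was 2.44-fold lower (adjusted p = 0.000752), with low signal in both groups (6.26 ± 0.27 in ESC and 7.55 ± 0.18 in null_EC). In null_EC against WT_EC 2 were higher and 2 lower, where 13.1% of all genes were called. Among them were Ccn4 (1.78-fold higher, adjusted p = 0.000219) and Ccn2, the connective tissue growth factor (2.98-fold lower, adjusted p = 0.00329). Htra4 was 1.48-fold lower there (adjusted p = 0.0382), a call lost without any 1 of 11 arrays (adjusted p up to 0.129). Null_EB had 2 higher and 3 lower than WT_EC, among them the matricellular Ccn1 (2.08-fold lower, adjusted p = 0.00555, and 0.0864 with the 6 arrays alone). Esm1, a proteoglycan of endothelial cells with low signal, was 2.39-fold lower in ESC than in WT_EC (adjusted p = 0.0312), with overlap, and not with the 6 arrays alone (adjusted p = 0.134). By limma, 0 genes of this list passed in null_EB against null_EC, where 2 had an unadjusted p below 0.05. The shares of all genes called were 5.40% there and 18.5% in null_EB against WT_EC.

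**Figure D4:**
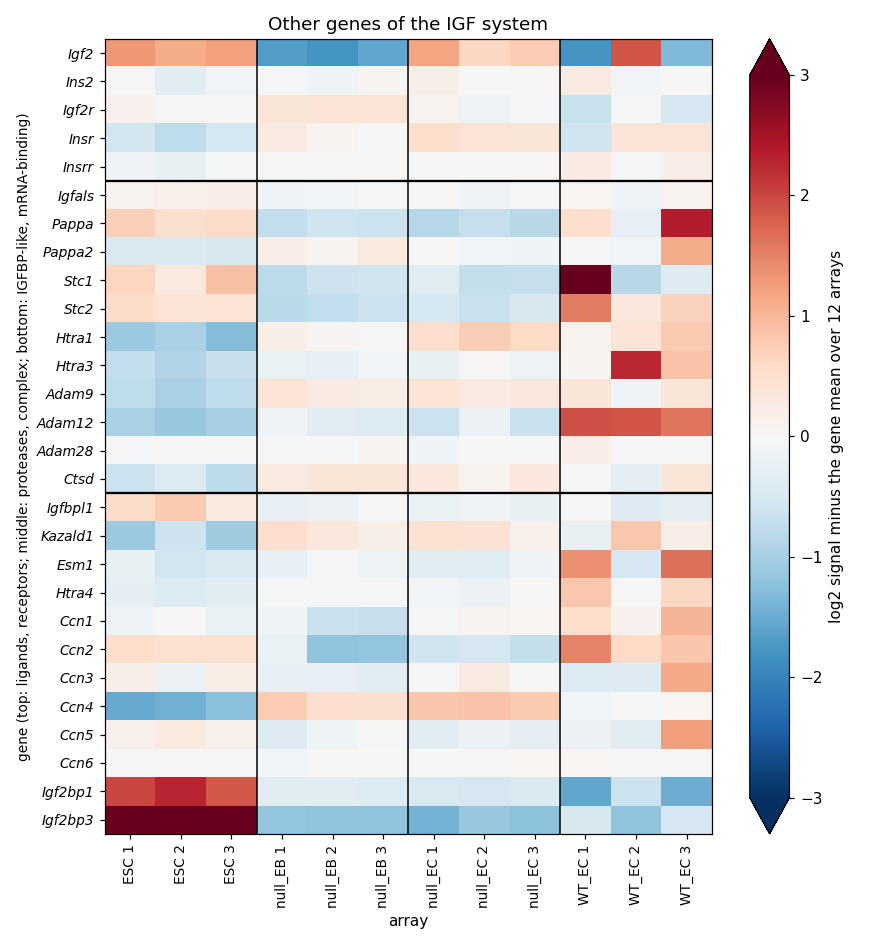
Log2 signal minus the gene's mean over the 12 arrays (colour) for the other measured ligands, receptors, proteases, complex genes, IGFBP-like and mRNA-binding genes (rows, split by black lines into 3 groups) on each array (columns). Igf2bp1 and Igf2bp3 were highest on the 3 ESC arrays, Igf2 was below its mean on the null_EB arrays and on WT_EC 1 and 3, and Adam12 was highest on the WT_EC arrays.

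Downstream of the receptor, 33 of 36 listed signalling genes were measured. In null_EC against WT_EC 4 were higher and 1 lower, and in null_EB against null_EC 2 higher and 2 lower. In null_EB against WT_EC 9 were higher and 3 lower. Over all genes 13.1%, 5.40% and 18.5% were called in these comparisons. Pik3cb, a catalytic subunit of phosphoinositide 3-kinase, was 2.02-fold higher in null_EC (10.55 ± 0.11) than in WT_EC (9.53 ± 0.38; adjusted p = 0.00194) and 2.09-fold lower in null_EB (9.49 ± 0.14) than in null_EC (adjusted p = 0.00376). The kinase Pdpk1, which activates AKT, was 1.498-fold higher in null_EC than in WT_EC (adjusted p = 0.000753). In null_EB against WT_EC, the regulatory subunit Pik3r2 was 1.68-fold higher (adjusted p = 0.00686) and the adaptor Grb14 was 1.92-fold lower (adjusted p = 0.00728), and neither passed with the 6 arrays alone (adjusted p = 0.0588 and 0.102). Grb10, an adaptor that dampens receptor signalling, was 1.85-fold lower in null_EB than in null_EC (11.30 ± 0.094 against 12.19 ± 0.027, adjusted p = 0.0131), a call lost without any 1 of 5 arrays (adjusted p up to 0.0682). Tsc2, an inhibitor of MTOR, was 1.48-fold higher in null_EB than in null_EC (adjusted p = 0.00150). Rptor, a subunit of the MTOR complex, was 1.21-fold higher (adjusted p = 0.0278), a call lost with the replicate number as a block (adjusted p = 0.0643), with a variance trend (adjusted p = 0.0621) and without any 1 of 7 arrays (adjusted p up to 0.133). Socs2, a suppressor of growth hormone signalling, lay 3.32-fold below WT_EC in null_EC (adjusted p = 0.0177). With the 6 arrays alone the calls of Pik3cb (adjusted p = 0.0573) and Socs2 (adjusted p = 0.164) in null_EC against WT_EC were lost. Irs1, the docking protein of the receptor, was at 8.002, 8.10 and 7.78 in ESC, 10.11, 10.07 and 10.17 in null_EB, 9.12, 8.99 and 9.02 in null_EC, and 7.68, 9.68 and 8.01 in WT_EC. It stood highest in null_EB, 3.17-fold above WT_EC (adjusted p = 0.0133, and 0.133 with the 6 arrays alone), while ESC lay 4.46-fold below null_EB (adjusted p = 0.000824) and 2.12-fold below null_EC (adjusted p = 0.0389). The call against null_EC was lost without any 1 of 9 arrays (adjusted p up to 0.108).

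ESC had 6 of the 33 signalling genes higher and 14 lower than null_EC. It had 8 higher and 12 lower than null_EB, and 9 higher and 11 lower than WT_EC. Over all genes 47.9%, 44.8% and 47.1% were called in these comparisons. Socs2 was 5.60-fold higher in ESC (11.23 ± 0.055) than in null_EC (8.75 ± 0.062; adjusted p = 0.000394) and the docking protein Gab1 was 2.17-fold higher (adjusted p = 0.0165). Pik3r1, the regulatory subunit of phosphoinositide 3-kinase, was 3.07-fold lower in ESC than in null_EC (9.46 ± 0.069 against 11.08 ± 0.049, adjusted p = 0.00114). The kinase Akt1 was 1.72-fold lower in ESC than in WT_EC (10.22 ± 0.085 against 11.01 ± 0.14, adjusted p = 1.24e-05). The median of the list lay between -0.13 and 0.13 in the 6 comparisons.

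Some genes elsewhere followed the 9 closely over the 12 arrays. The 3 most alike were sought among 16900 named genes for each of the 4 whose group means spanned at least 2 log2 units, by Pearson's r. The arrays fall into 4 groups, so r mostly restates the order of the groups. Igfbp3 was followed by Sema3c (r = 0.989), Ramp1 (r = 0.974) and Paf1 (r = 0.972). Sema3c, a secreted guidance factor, averaged 8.36 in ESC, 9.41 in null_EB, 10.85 in null_EC and 9.18 in WT_EC. Igfbp2 was followed by Amph (r = 0.996), Sult4a1 (r = 0.996) and Gart (r = 0.995). Igfbp4 was followed by Tns2 (r = 0.993), Smarcc2 (r = 0.992) and Ergic3 (r = 0.991), and Igfbp6 by Ccdc9b (r = 0.995), the collagen chaperone Serpinh1 (r = 0.991) and Mst1r (r = 0.991).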

How the data were processed

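RNA of 12 samples was measured on whole-transcript arrays. The values are log2 signals per probe set that the submitters deposited, made by RMA (background correction, quantile normalization and median polish) in Affymetrix Expression Console 1.2.1, per the submitters' processing notes. A protocol in the labels names a human array, while the probe set names match a mouse gene-level platform. The genome build behind the probe sets is not given in the sources used here.

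Of 35556 probe sets, 21789 had 1 gene symbol, 1621 had several and 12146 had none. Of the probe sets with 1 symbol, 21698 matched the RefSeq gene table and 0 symbols were updated. The brightest probe set stood for each of the 999 genes with several, which left 19938 genes. Array medians were 7.66 to 7.75, 0 pairs of arrays held identical values, and 3 arrays per group limit the precision.

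Groups were taken from the sample titles. A group-means model was fitted over all 12 arrays with limma 3.58.1 in R 4.3.3 (lmFit and eBayes, two-sided), with 6 comparisons and Benjamini-Hochberg adjustment over all genes. The limma script was first tested on simulated data. Promoter windows came from RefSeq, build GRCm38.p6.

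The 9 genes and all gene lists were chosen with earlier results of these data known. Beyond the 9 genes and Cd47, genes named from each IGF list are, per comparison, the called ones with the largest changes, up to 2 in each direction, and the 3 genes most alike for each of the 9 that spans at least 2 log2 units. Marker genes, Igf2 in null_EB against null_EC and individual genes named beside a result were chosen after their values were seen. The alternatives tried were dropping dim genes (kept where 3 or more arrays reached a log2 of 6), the most variable probe set, scaling on 24 housekeeping genes, the arrays of 2 groups alone, array weights, a variance trend with robust moderation, the replicate number as a block, and each array left out in turn. Some listed genes are not reported here.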

Additional observations from a re-analysis of the deposited data

How the results depend on the processing

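Over 1053 values of the 9 genes under the alternatives, 951 kept their direction and their side of the threshold, 49 lost a call, 31 gained one and 22 changed sign. With the arrays of 2 groups alone, 1 of the 9 was called between null_EC and WT_EC, 7 between null_EB and null_EC and 1 between null_EB and WT_EC. With 1 array left out the counts ranged from 2 to 5 between null_EC and WT_EC, where 5 came without WT_EC 2. They were 3 to 4 between null_EB and null_EC, and 1 to 4 between null_EB and WT_EC. For ESC they were 5 to 7 set against null_EC, 6 to 7 set against null_EB, and 6 to 9 set against WT_EC. No pairing by replicate number was seen, as same-numbered deviations correlated at -0.256 to 0.225. With 3 arrays per group this cannot exclude it. With the replicate block the counts were 3, 3, 2, 5, 6 and 7 in the same order of comparisons. Counts over all genes moved more: with the arrays of 2 groups alone 588 genes in place of 2615 were called between null_EC and WT_EC, 5464 in place of 1077 between null_EB and null_EC, 870 in place of 3697 between null_EB and WT_EC, and 6250 in place of 9394 between ESC and WT_EC. Array weights gave 8001 in null_EB against null_EC, and for ESC 14316 (null_EC) and 14866 (null_EB). Housekeeping scaling gave 2689 in null_EB against null_EC and 15330 in ESC against null_EB, and the fit with no WT_EC arrays gave 5058 in null_EB against null_EC. In null_EC against WT_EC 5435 genes were called without WT_EC 2. Housekeeping scaling moved the median log2 difference of all genes by 0.20 between null_EB and null_EC and by 0.15 between null_EB and WT_EC. For ESC the shift was -0.20 (null_EC), -0.39 (null_EB) and -0.24 (WT_EC). Signs that turned belonged to small differences that were not called in the main analysis, save that of Igfals. In null_EC against WT_EC, array weights gave -0.022 for Igfbp1, -0.094 for Igfbp4 and -0.095 for Igfbp6, and housekeeping scaling gave -0.026 for Igfbp6. Housekeeping scaling gave 0.12 for Igfbp1 and 0.15 for Igfbp5 in null_EB against null_EC, -0.13 for Igf1 and -0.10 for Igf1r in ESC against null_EC, and -0.12 for Igfbp5 and -0.15 for Igfals in ESC against null_EB. Array weights gave -0.14 for Igfbp1 in null_EB against WT_EC. With 1 array left out, Igfbp2 ranged from -0.38 to 0.13, Igfbp4 from -0.30 to 0.53 and Igfbp6 from -0.10 to 0.18 in null_EC against WT_EC. In null_EB against WT_EC Igfbp1 ranged from -0.065 to 0.12, Igfbp3 from -0.12 to 0.31 and Igfbp4 from -0.10 to 0.73, and Igf1 ranged from -0.034 to 0.19 in ESC against null_EC. The cause was not tested.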
